A study of Mus musculus with 4 samples.

Results

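The 5 probes described here read the mouse microRNAs (miRNAs) mmu-miR-130a, mmu-miR-301a, mmu-miR-130b and mmu-miR-301b and mmu-miR-130b*, the opposite arm of the miR-130b precursor; the species prefix is left off below. They were picked by name among the 696 miRNA probes of an Agilent array, and the choice was made with their differences between E16 and E11 already known. Total RNA came from mandibular molar tooth germs of embryos of the outbred ICR mouse strain, at embryonic day 11 (E11), day 12 (E12), day 14 (E14) and day 16 (E16). All 4 groups share the strain, the tissue and the absence of any treatment, and each is 1 array labelled with the single dye Cy3. The sources used here do not say how many embryos stand behind an array. With 1 array per stage no test between stages and no spread between animals can be given, so the number of arrays limits the precision and every error printed below is the measurement error stated on the array.

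A miRNA is a short RNA that guides the silencing machinery to messenger RNAs that pair with its seed, the bases 2 to 8 from its 5′ end, and miRNAs with one seed share most predicted targets. The miR-130 and miR-301 family is one such seed family, best known for targets in the TGF-beta pathway, and miR-130 is also known to repress PPARG in fat cell precursors. TGF-beta and BMP signals pass between the dental epithelium and the neural crest mesenchyme as the molar goes through bud, cap and bell stages. Each precursor hairpin is cut into a duplex, of which one arm usually enters the silencing complex while the other, marked with an asterisk in older names, is mostly degraded.

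The sequences show what the members have in common and where they part. RefSeq's miRNA table (build GRCm38.p6) held a mature entry for 4 of the 5 members, and miR-301b had none. The mature RNAs are printed 5′ to 3′ with bases 2 to 8 in capitals:
miR-130a: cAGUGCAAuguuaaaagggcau
miR-130b: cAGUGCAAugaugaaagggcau
miR-301a: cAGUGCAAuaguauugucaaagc
miR-130b*: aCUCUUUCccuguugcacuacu

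miR-130a, miR-130b and miR-301a had the same bases 2 to 8, AGUGCAA, while miR-130b* had CUCUUUC and so falls outside the seed family. Along their 22 bases miR-130a and miR-130b were identical at 20 and differed by U11A and A13G, with positions counted from the 5′ end of miR-130a. miR-301a matched miR-130a over the first 9 bases and at 12 of 22 in all. How far the near-identical miR-130a and miR-130b cross-hybridise to each other's probe was not tested.

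The 4 hairpins lie at 3 places in the genome, and they are printed because the comparison of the miR-130b and miR-301b cluster with the other members rests on them. Capitals mark AGUGCAA, searched on the hairpin strand, which occurred once in each and in 1.19% of the 1005 miRNA hairpins of the table:
Mir130b: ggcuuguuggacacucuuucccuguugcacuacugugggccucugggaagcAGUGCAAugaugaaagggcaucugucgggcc
Mir301b: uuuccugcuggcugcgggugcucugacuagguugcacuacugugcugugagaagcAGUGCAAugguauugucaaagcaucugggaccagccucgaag
Mir130a: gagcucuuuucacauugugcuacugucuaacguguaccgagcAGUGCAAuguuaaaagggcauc
Mir301: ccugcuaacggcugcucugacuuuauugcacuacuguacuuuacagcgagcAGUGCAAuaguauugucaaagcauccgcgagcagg

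Mir130b (chr16:17124061-17124142) and Mir301b (chr16:17124400-17124496) lie on the minus strand of the same chromosome with 257 bases between them, and both overlap the annotated gene 2610318N02Rik. Mir130a (chr2:84741115-84741178, minus strand) overlapped no other gene of the table, and its nearest annotated gene was the long noncoding RNA Gm19426. Mir301, the gene of miR-301a (chr11:87113004-87113089, plus strand), lies within Ska2, which encodes a kinetochore protein. The table gives no exons, so exonic or intronic position was not analysed here. The miR-130b and miR-301b hairpins are thus neighbours, whereas miR-130a and miR-130b, the closest pair among the mature RNAs compared, come from different chromosomes.

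Between E11 and E16 the members of the chromosome 16 locus parted from the other two. The signals of miR-130b, miR-301b and miR-130b* were lower at E16 than at E11, both as deposited and after scaling between arrays. Those of miR-130a and miR-301a were higher as deposited. Relative to the median difference of all miRNAs, miR-130a lay 0.31 to 0.61 above on the log2 scale over the 6 scalings tried. miR-301a lay between -0.07 and 0.36 from that median. All 5 members were detected on all 4 arrays. Each member's signals are given first, as deposited and not scaled, so they carry the rise in signal of the whole array.

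miR-130a gave signals of 1294 ± 92.2 at E11, 2274 ± 162 at E12, 2039 ± 145 at E14 and 2594 ± 184 at E16. E11 was its low stage, with error bars apart from the other 3, and E16 was the highest. miR-301a gave 286 ± 24.3, 537 ± 43.3, 311 ± 25.3 and 593 ± 46.9 in the same order, so it was high at E12 and E16 and low at E11 and E14.

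miR-130b gave 422 ± 31.0 at E11, 389 ± 28.8 at E12, 253 ± 18.9 at E14 and 245 ± 18.6 at E16. E11 and E12 lay within their errors of each other, as did E14 and E16, with the lower level in the later pair. miR-301b, its cluster neighbour, gave 59.3 ± 4.94, 65.5 ± 5.72, 38.3 ± 3.74 and 34.6 ± 3.83. It showed the same arrangement of a higher early pair and a lower late pair.

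miR-130b*, the opposite arm of the miR-130b hairpin, gave 36.2 ± 3.54 at E11, 28.2 ± 3.78 at E12, 15.4 ± 2.74 at E14 and 10.0 ± 2.30 at E16. It was lower at each later stage, and E11 lay above the other 3 stages beyond the stated errors. At E16 its error was 22.9% of the signal, against 7.11% for miR-130a, and the lowest detected signal on that array was 6.51. Probes differ in affinity, so the signals of different probes do not rank the miRNAs by abundance.

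**Figure D1:**
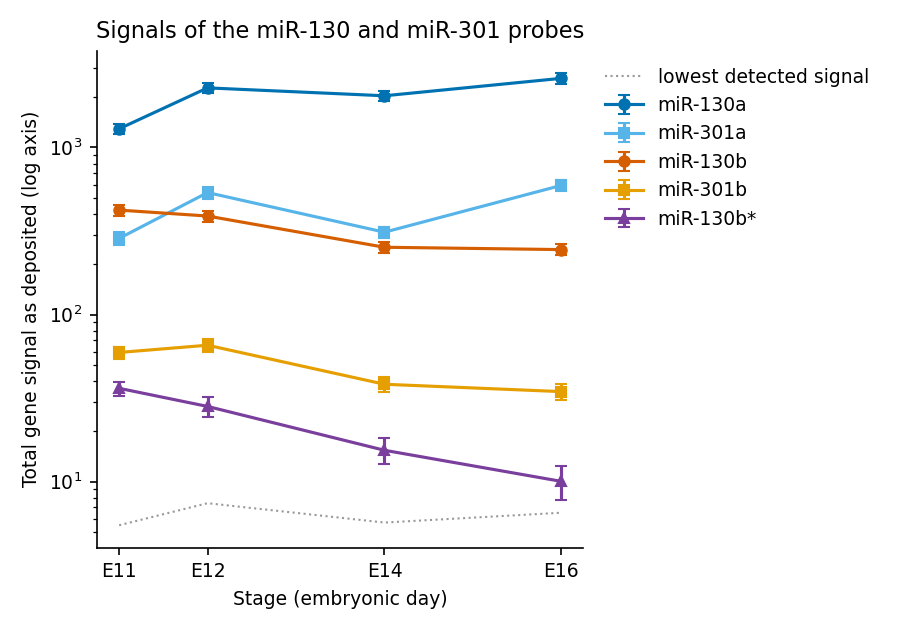
Total gene signal as deposited (log axis) of the 5 probes at E11, E12, E14 and E16, 1 array per stage, with bars for the stated signal error and a dotted line for the lowest detected signal of each array. miR-130b* is lower at each later stage, from 36.2 to 10.0, while miR-130a is highest at E16 (2594).

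The arrays themselves shift between stages. They detected 209, 221, 249 and 250 of 696 miRNAs, and the 75th percentile of the 197 miRNAs detected on all arrays was higher by 0.67 (E12), 1.08 (E14) and 1.44 (E16) on the log2 scale than at E11. Dividing by that percentile is the main scaling, and over the 205 miRNAs present at both E11 and E16 it sets the median difference to -0.74, where the deposited signals have 0.69. At E14, 24 of the 197 miRNAs were at least 2-fold above both E12 and E16, none of them a member. Among cell type marker miRNAs, those of epithelium were detected in 6, 7, 7 and 7 of 7 cases with a median E16 minus E11 difference of 1.35 on the main scaling and 2.78 on the deposited signals. Those of mesenchyme were detected in 7 of 8 cases at every stage, with a median of -0.40, a range from -2.51 to 1.67 and a median of 1.03 on the deposited signals. The 4 muscle probes were detected on no array. Of the 4 neuronal probes 1, 2, 1 and 2 were detected by stage, and miR-124 and miR-9 on no array. In whole tooth germs fewer cells of a type and less RNA per cell cannot be told apart, and the part of the changing epithelial and mesenchymal markers in the members' differences was not tested.

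On the main scaling the E16 minus E11 difference was -2.22 ± 0.15 (log2) for miR-130b and -2.21 ± 0.20 for miR-301b, or 4.66-fold and 4.64-fold lower. It was -3.29 ± 0.36 for miR-130b*, or 9.75-fold lower. miR-130a was at -0.43 ± 0.15 and miR-301a at -0.38 ± 0.17. So 3 of the 5 members were at least 2-fold lower and 0 at least 2-fold higher, where the background over all 205 miRNAs was 37.6% lower (77) and 13.7% higher (28). With median scaling the same 3 members were lower, while the count over all miRNAs went from 28 higher and 77 lower to 44 and 35. The members were chosen with these values known, so nothing is read from their share.

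Without scaling, miR-130b was 1.72-fold lower (-0.79), miR-301b also 1.72-fold lower (-0.78) and miR-130b* 3.61-fold lower (-1.85), while miR-130a was 2.005-fold higher (1.003) and miR-301a 2.08-fold higher (1.05). On that scale 1 member was at least 2-fold lower, against 4.39% of all miRNAs, and 2 were at least 2-fold higher, against 44.9%. miR-130b* was at least 2-fold lower under all 6 scalings tried, and miR-130b and miR-301b under 5 of 6, the exception being the deposited signals. The authors' table was recovered by quantile normalization and both percentile scalings gave near-equal values, so the 6 scalings are not separate checks. The sign of miR-130a was positive under 4 of them (median scaling, quantile normalization, the authors' value table and no scaling) and that of miR-301a under 2 of them (median scaling and no scaling).

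Read against the median of all miRNAs under the same scaling, a constant scaling cancels. Of the 6 scalings only quantile normalization and the authors' table could therefore move the values. miR-130b minus that median was -1.48 on the main scaling and ran from -1.62 to -1.48 over the 6. miR-301b ran from -1.49 to -1.47 and miR-130b* from -3.12 to -2.54. miR-130a ran from 0.31 to 0.61, and miR-301a from -0.07 to 0.36. The members of the chromosome 16 locus were thus below the median of all miRNAs, and the chromosome 2 member above it. This held for any constant scaling, for quantile normalization and in the authors' table.

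**Figure D2:**
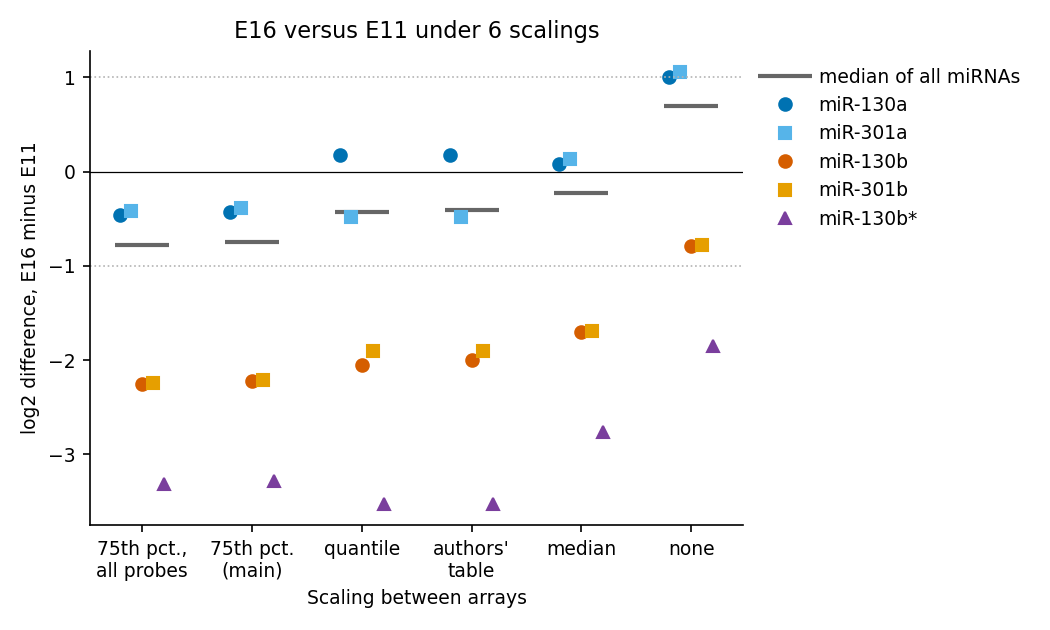
E16 minus E11 log2 difference of each member under the 6 scalings between arrays, with a grey bar for the median over the miRNAs that both arrays detected and dotted lines at a 2-fold difference. The 3 points of miR-130b, miR-301b and miR-130b* lie below the grey bar under each scaling, and the bar itself ranges from -0.78 to 0.69.

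The ratio of a pair of probes on the same array is free of any constant scaling, so it compares the cluster with the other members directly. Only its change between stages is read, since its level depends on probe affinity. The signal of miR-130b as a percentage of that of miR-130a was 32.6% ± 3.34 at E11, 17.1% ± 1.76 at E12, 12.4% ± 1.28 at E14 and 9.44% ± 0.98 at E16. It was lower at each later stage. The change from E11 to E16 was -1.79 ± 0.21 on the log2 scale, a 3.46-fold relative difference and 8.49 times its stated error.

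The signal of miR-301b as a percentage of that of miR-301a was 20.8% ± 2.47 at E11, 12.2% ± 1.45 at E12, 12.3% ± 1.56 at E14 and 5.83% ± 0.79 at E16. The change from E11 to E16 was -1.83 ± 0.26, or 3.56-fold. E12 and E14 were alike within the errors, so the ratio of the deposited signals was lower at E12 and again at E16. With quantile normalization the gap of miR-301b to miR-301a changed at each step. It was -0.55 from E11 to E12, -0.23 from E12 to E14 and -0.65 from E14 to E16. The crossed comparisons gave -1.84 ± 0.23 for miR-130b against miR-301a and -1.78 ± 0.25 for miR-301b against miR-130a. Over all 20910 pairs of miRNAs detected at both stages the median size of such a difference was 1.20, so gaps of this size are common on these arrays.

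Within each pair the gaps at E16 were small. miR-130b and miR-301b differed by -0.01 ± 0.25 in their change from E11 to E16, and miR-130a and miR-301a by -0.05 ± 0.22. Both are within the stated error, which leaves room for a difference of about its size. Quantile normalization, whose correction depends on the signal level, left the first gap at -0.15 but opened the second to 0.66, with miR-130a above miR-301a.

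**Figure D3:**
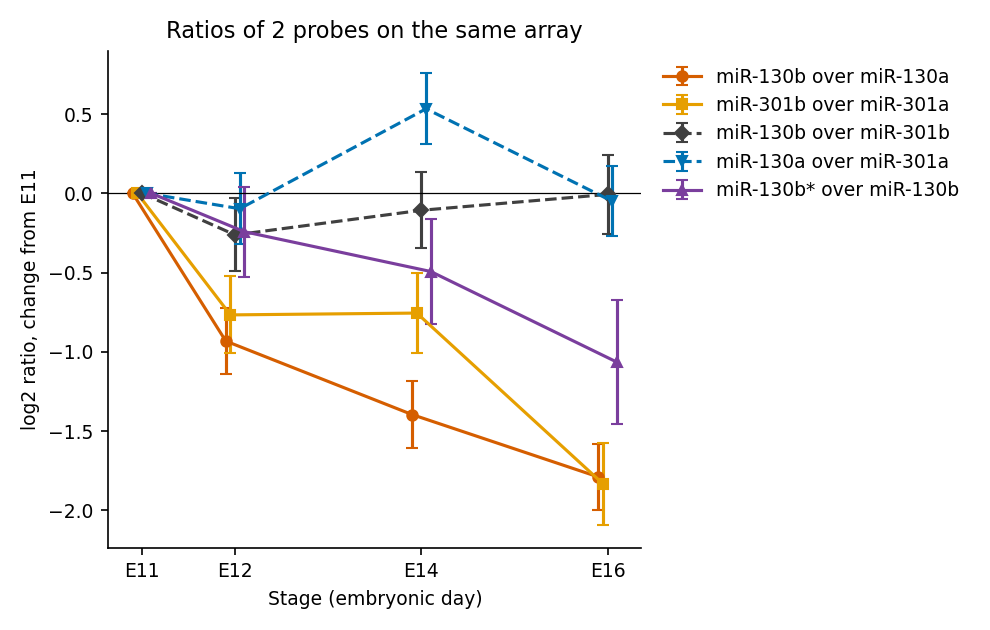
Change from E11 in the log2 ratio of 2 probes on the same array at each stage, with bars for the combined stated errors of the 4 signals. miR-130b over miR-130a and miR-301b over miR-301a reach -1.79 and -1.83 at E16, while miR-130b over miR-301b stays within 0.26 of its E11 value and miR-130a over miR-301a departs from it at E14 (0.53).

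The size of the gaps between members differed between steps. From E11 to E12, on the main scaling, miR-130b was at -0.79 ± 0.15, miR-301b at -0.53 ± 0.17 and miR-130b* at -1.03 ± 0.24, while miR-130a was at 0.14 ± 0.15 and miR-301a at 0.24 ± 0.17. miR-301b turned to 0.14 on the deposited signals, and miR-130a to -0.04 when scaled by all probes. At this step 1 of the 5 members, miR-130b*, was at least 2-fold lower, with 8.46% of 201 miRNAs lower, and 0 were higher (background 9.45%). It passed 2-fold under 3 of the 6 scalings and was at -0.91 with quantile normalization and in the authors' table and at -0.36 on the deposited signals. The gap of miR-130b to miR-130a, free of any constant scaling, was already -0.93 ± 0.21, and that of miR-301b to miR-301a -0.77 ± 0.24. With quantile normalization and in the authors' table these gaps were -0.94 and -0.55.

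From E12 to E14 all members had lower values under each of the 6 scalings. miR-130b was at -1.03 ± 0.15, miR-301b at -1.19 ± 0.19, miR-130b* at -1.28 ± 0.32, miR-301a at -1.20 ± 0.17 and miR-130a at -0.57 ± 0.15. That put 4 of the 5 at least 2-fold lower, where the background was 15.1% of 212 miRNAs, around a median of -0.40, and 0 higher (background 12.7%). That count of 4 held with the all-probe percentile, where 36 of the 212 miRNAs were lower. It was 2 (miR-301b and miR-130b*) with quantile normalization and in the authors' table, where 34 and 33 of the 212 were lower. With median scaling it was 1 (miR-130b*), against 18 of the 212, and on the deposited signals 0, against 9. The chromosome 11 member miR-301a was nearer here to miR-130b than to miR-130a. Its gap to miR-130b was within the error (0.17 ± 0.22, miR-130b minus miR-301a), and miR-130a minus miR-301a was 0.63 ± 0.22, or 0.41 with quantile normalization and in the authors' table. miR-130b minus miR-130a was -0.46 ± 0.21, or -0.34 with quantile normalization.

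From E14 to E16 miR-301a was at 0.57 ± 0.16, miR-130a at -0.01 ± 0.15, miR-130b at -0.40 ± 0.15, miR-301b at -0.50 ± 0.21 and miR-130b* at -0.97 ± 0.42. miR-130a was positive under the other 5 scalings. No member passed 2-fold in either direction (background 13.4% lower and 7.36% higher of 231 miRNAs). The gap of miR-301b to miR-301a was -1.08 ± 0.27 (-0.65 with quantile normalization and in the authors' table), and that of miR-130a to miR-301a -0.58 ± 0.22, which returned miR-301a to the position relative to miR-130a that it had at E12. The latter gap turned to 0.11 with quantile normalization.

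Over the whole course miR-130b, miR-301b and miR-130b* were lower at every one of the 3 steps and passed 2-fold by E16 on the main scaling, as did 23.4% of the 197 miRNAs detected on all arrays. The same 3 members met that rule with the all-probe percentile (background 19.3%), with median scaling (11.7%), and with quantile normalization and the authors' table (17.3% in both). On the deposited signals only miR-130b* of the members met that rule, with a background of 2.54%, while miR-130b was lower at each step without reaching 2-fold and miR-301b was not lower at E12.

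**Figure D4:**
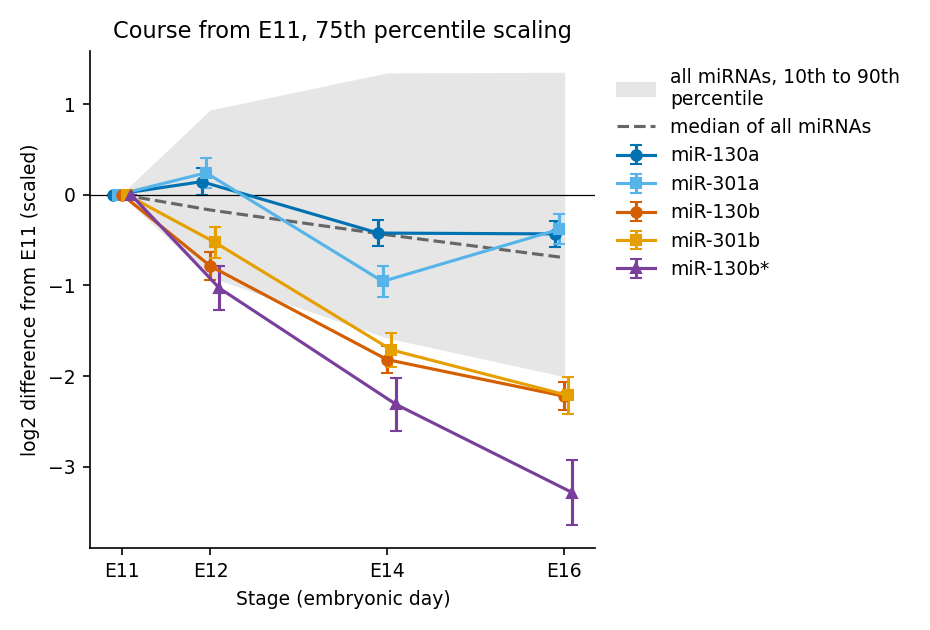
Log2 difference from E11 of each member on the main scaling, with bars for the combined stated errors, against the median (dashed) and the 10th to 90th percentile (grey) of the 197 miRNAs detected on all arrays. At E16 miR-130b and miR-301b coincide at -2.22 and -2.21, below the 10th percentile of -1.99, and miR-130a and miR-301a lie above the median of -0.69.

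The measured signals of the arms of the miR-130b hairpin, the sequences beginning cAGUGCAA and aCUCUUUC, did not keep a constant ratio over the 4 arrays. At E16 the signal of miR-130b* was only 1.54 times the lowest detected signal of that array. The signal of miR-130b* as a percentage of that of miR-130b was 8.58% ± 1.05 at E11, 7.25% ± 1.11 at E12, 6.09% ± 1.18 at E14 and 4.10% ± 0.99 at E16. Neighbouring stages lay within 1.28 combined errors of each other, and the change from E11 to E16 was -1.07 ± 0.39, or 2.09-fold, at 2.73 times its error. Quantile normalization gave -1.47, of which -1.12 fell between E12 and E14, where the ratio of the deposited signals changed by -0.25 ± 0.36.

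Such a change of the starred arm was met elsewhere on the arrays. Of 12 precursors with a named and a starred arm detected at both E11 and E16, the starred arm was at least 2-fold lower relative to the named arm in 5, or 41.7%, and at least 2-fold higher in 1, with a median of -0.56. Of the 11 with both arms on all arrays, 4 (36.4%) had a lower ratio at every step, miR-130b among them. The starred arm of miR-154 was at -2.17 ± 0.39 relative to its named arm and that of miR-106b at -1.83 ± 0.39, both larger than for miR-130b, while that of miR-214 was at 1.07 ± 0.28. The part of low signal in these changes was not tested.

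**Figure D5:**
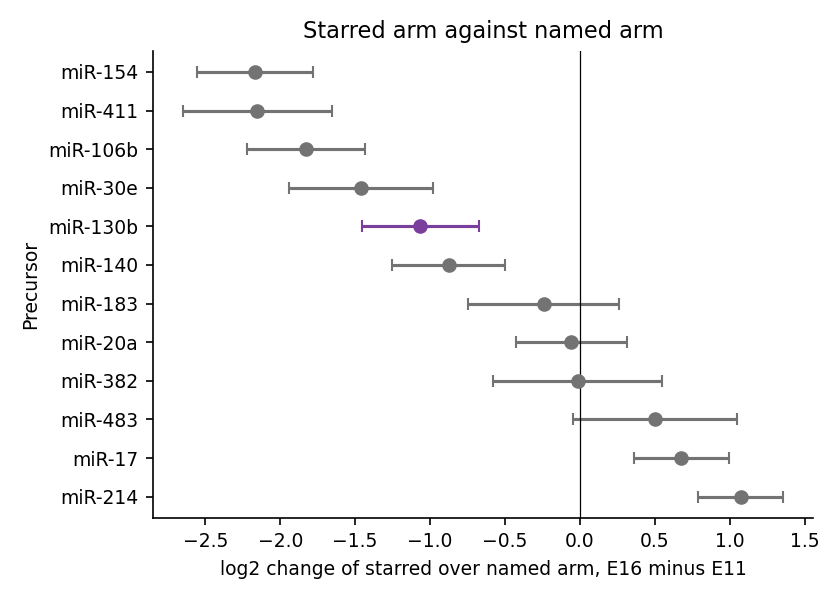
Change from E11 to E16 in the log2 ratio of the starred to the named arm for the 12 precursors with both arms detected at both stages, with bars for the combined stated errors of 4 signals. miR-130b (purple) is number 5 from the lowest at -1.07, within a range from -2.17 to 1.07.

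Outside the members the family seed was represented by a single, hardly detected probe. Of 7 mature RNAs in the RefSeq table with AGUGCAA at bases 2 to 8, 4 have a probe on the array, and the 1 that is no member is miR-721 (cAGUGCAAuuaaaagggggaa). It was detected at E14 alone, at a signal of 6.21 ± 1.88, close to the lowest detected signal there of 5.69. miR-130c, miR-6341 and miR-6389 share the seed and have no probe of that name.

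The miR-148 and miR-152 family, known for targeting DNA methyltransferase 1, carries the same core of letters shifted by 1 base, with CAGUGCA at bases 2 to 8:
miR-148a: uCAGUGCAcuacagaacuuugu
miR-152: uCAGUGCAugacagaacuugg

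Within it miR-152 and miR-148a had positive E16 minus E11 differences under all 6 scalings, against negative ones for the chromosome 16 members. miR-152 gave signals of 12.8 ± 3.65, 75.1 ± 8.34, 81.5 ± 7.68 and 187 ± 14.6 from E11 to E16, with an error of 28.5% of the signal at E11, and its scaled difference was 2.43 ± 0.43. miR-148a was at 0.80 ± 0.16, with 0.74 to 2.23 over the 6 scalings, and miR-148b at -0.50 ± 0.30, the latter at 0.93 on the deposited signals, and the fourth probe, miR-148a*, was detected on no array. Of these 3 differences 1 was at least 2-fold higher and 0 lower, with backgrounds of 13.7% and 37.6% of 205 miRNAs. On the deposited signals 2 were at least 2-fold higher, with a background of 44.9%. With median scaling it was also 2, with a background of 44 of the 205 miRNAs.

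The major arms of the miR-17-92 cluster and its paralogs, known for promoting cell proliferation, were set beside the family as a list of embryonic growth miRNAs. Of 9 probes, 7 were at least 2-fold lower at E16 than at E11 on the main scaling, against the background of 37.6% of 205, with a median of -1.21. On the deposited signals 0 of the 9 were (background 9 of 205 miRNAs), with a median of 0.23, and with median scaling 1 was (background 35 of 205). The count was 8 with the all-probe percentile (background 78 of 205). It was 5 with quantile normalization and in the authors' table (background 64 of 205 in both). miR-92a, which had the most negative difference of the list, was at -1.99 ± 0.16 (-0.56 on the deposited signals). On the main scaling miR-130b and miR-301b were below each member of the list, and their distance from miR-92a was about the size of the combined errors.

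Among all miRNAs detected on the 4 arrays, the nearest courses were sought by the root mean square distance between log2 profiles, each centred on its own mean over the 4 stages. Of the 196 others, miR-301b was the nearest to miR-130b, at a distance of 0.11, where the median distance from miR-130b was 0.75. With quantile normalization it was the fourth nearest (0.12), behind miR-1983 (0.03), miR-541 (0.06) and miR-329 (0.10). In the other direction, on the main scaling, miR-130b was the fourth nearest to miR-301b, behind miR-329 (0.08), miR-495 and miR-541 (both 0.09). miR-329 gave signals of 207 ± 16.0, 242 ± 19.0, 151 ± 12.0 and 138 ± 11.7, with the arrangement of a higher early and a lower late pair seen for miR-301b. Outside the family miR-130b was nearest to miR-214 (0.12), which gave 2787 ± 209.8 at E11 and 1320 ± 100.5 at E16, then to miR-329 (0.13) and miR-495 (0.13). miR-214 is one of the mesenchyme markers and the one with the most negative difference of that list (-2.51).

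miR-130a was nearest to miR-199b* (0.02), which gave 1583 ± 126 at E11, 2832 ± 224 at E12, 2481 ± 194 at E14 and 3234 ± 247 at E16, then to miR-148b (0.03) and miR-154 (0.09). miR-199b* is also on the mesenchyme list, at -0.40. miR-301a was nearest to miR-542-3p (0.06), miR-450a-5p (0.08) and miR-126-5p (0.10, an endothelial marker), and miR-130b* to miR-543 (0.15), miR-409-3p (0.21) and miR-433 (0.27). Thus miR-130a was not among the closest companions of any other member: it was number 13 by distance from miR-301a and number 86 from both miR-130b and miR-301b. These distances compare 4 points each on shared arrays and are descriptions. With quantile normalization 5 of the 15 nearest miRNAs stayed the same.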

How the data were processed

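Per the file headers, the deposited intensity is Agilent's total gene signal on a linear scale, with its error and a detection flag; undetected features are written as 0.1. RNA (100 ng per array) was labelled with Cy3, per the labels' protocols. The sources used here do not name the array design, the software or the background correction. An array has 718 features, 22 of them controls, which were left out.

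The log2 signal was taken relative to the 75th percentile of the 197 miRNAs detected on all arrays. Differences are later minus earlier, with the stated errors combined. The 2-fold limit is a size, with no test behind it. The alternatives were the 75th percentile of all probes, the median, quantile normalization, no scaling and the authors' value table. That table holds intensity on a linear scale (column medians 0.1, or 123, 106, 83.7 and 83.0 over detected miRNAs), and all 929 detected values were recovered within 0.1% by quantile normalization of all features. No centring was found; how the authors made it is not stated in the sources used here.

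The members and lists were chosen with earlier results of these data known. By rule, the text names the 5 members, the 3 nearest courses of each, the same-seed miRNAs, the miR-148 and miR-152 probes, the miR-17-92 major arms and cell type markers (epithelium, mesenchyme, endothelium, erythroid cells, leukocytes, muscle, neurons). Endothelial miR-126-3p and miR-126-5p had a median E16 minus E11 difference of 0.09; of erythroid probes 1, 1, 1 and 2 of 2 were detected by stage, of leukocyte probes 0, 1, 1 and 2 of 4, and of neuronal probes 1, 2, 1 and 2 of 4. The arm pairs miR-154, miR-106b and miR-214 were named after their values were seen. Scripts (Python 3.11.15, pandas 2.3.3, numpy 2.4.6) were tested on simulated arrays.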

Additional observations from a re-analysis of the deposited data

How the results depend on the processing

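No paired analysis was possible because each stage has 1 array. With median scaling the E16 minus E11 difference was 0.085 for miR-130a, 0.14 for miR-301a, -1.70 for miR-130b, -1.70 for miR-301b and -2.77 for miR-130b*; without scaling 1.003, 1.05, -0.79, -0.78 and -1.85 in that order. Quantile normalization and the authors' table gave 0.18 for miR-130a, -1.90 for miR-301b, and -2.05 and -2.0002 for miR-130b. The remaining 9 of 25 alternatives moved by less than the stated error.

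A constant scaling cannot alter a gap between a pair of members, but quantile normalization can. It gave -2.24 for miR-130b minus miR-130a (-2.18 in the authors' table), -1.43 for miR-301b minus miR-301a, -1.58 for miR-130b minus miR-301a (-1.52), -2.08 for miR-301b minus miR-130a, 0.66 for miR-130a minus miR-301a, -1.47 for miR-130b* minus miR-130b (-1.53), -1.62 for miR-130b* minus miR-301b and -3.71 for miR-130b* minus miR-130a; where 1 value is given, both gave it. The gap of miR-130a to miR-301a is the 1 of the 10 whose sign turned.

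The background counts moved by over 1.5 times in 13 of 56 cases. For E16 versus E11 (28 higher, 77 lower) median scaling gave 44 and 35 and no scaling 92 and 9. For E12 versus E11 (19 and 17) no scaling gave 46 and 2, and all probes 26 lower. For E14 versus E12 (32 lower) median scaling gave 18 and no scaling 9. For E16 versus E14 (17 higher) all probes gave 28, median scaling 30, no scaling 36, and the miRNAs detected on all arrays 9. Signal over background limits miR-130b* most: its E16 signal of 10.0 is 1.54 times the lowest detected signal of that array.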
